A study of Mus musculus with 15 samples.

Results

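Unwounded skin of K14CreERTM/LSL-SOX2 mice treated with tamoxifen was compared with unwounded skin of the same line treated with vehicle, by RNA sequencing of whole skin. The contrast holds 7 of the 15 libraries of the series, 3 with tamoxifen (replicates 2, 3 and 4) and 4 with vehicle (replicates 1 to 4), all of day 0. They were chosen by their labelled treatment and wound state, not by any measured value. Genes were described where the RPKM (reads relative to gene length and to the mapped reads of the library) was at least 1 in at least 3 of the 15 libraries, which left 13922 of 24543 genes. In this line the keratin 14 promoter, active in basal keratinocytes and the outer root sheath, drives a Cre recombinase that tamoxifen activates, and the recombinase is meant to release a SOX2 transgene from a stop cassette. Tamoxifen was applied to the skin at 5 mg/ml in 200 µl of ethanol, and vehicle skin received ethanol alone. Both groups carry the transgenes and are 129/SvEv/C57/B16 X CD-1, and the labels hold no age. No group received tamoxifen without the transgenes, so effects of the drug and of the recombined allele cannot be told apart. The other 8 libraries are of wounded skin of day 4. They entered the model for its estimate of the spread, and since their treatment names differ between the sources they are used for nothing else.

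Hair follicles pass through cycles of growth, regression and rest. In growth, cells of the matrix at the base of the follicle divide and differentiate into the inner root sheath, which moulds the hair, and into the shaft, which is built of hair keratins cross-linked by keratin-associated proteins, while melanocytes in the bulb make its pigment. Hedgehog, WNT, BMP, FGF and Notch signals between matrix and dermal papilla direct these steps, and a resting follicle expresses almost none of the structural genes. The skin around the follicles holds the interfollicular epidermis with its cornified layer, sebaceous glands, dermal fibroblasts, vessels, fat, a thin sheet of skeletal muscle and resident immune cells.

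Library depth was 48927814 to 52246033 alignments with tamoxifen and 57271879 to 63992429 with vehicle, so depth did not overlap between the groups. At these depths 48.9 to 64 reads give a gene 1 kb long 1 RPKM, and 3 reads give it 0.0469 to 0.0613 RPKM, counting error only. Skin markers were present in both groups, with the basal keratin gene Krt5 at 1341 to 1898 RPKM over the 7 libraries. Of 6 markers of liver, brain, kidney and lung the highest was the albumin gene Alb, at up to 3.45 RPKM. Sox2 was at 2.89, 2.35 and 1.98 RPKM with tamoxifen and at 2.57, 2.56, 2.04 and 1.85 RPKM with vehicle, and reads of a gfp sequence numbered 3 to 5 and 5 to 9 per library. Neither value was higher with tamoxifen beyond the spread, and whether the deposited Sox2 values count reads of the transgene is not known here, so its release cannot be read from them. Correlations between libraries over the genes tested were 0.979 to 0.994 within tamoxifen, and tamoxifen replicate 2 was the library that stood apart. The female transcript Xist was at 13.6 to 18.5 RPKM in all 7 libraries, and the Y-linked gene Ddx3y was at 0.01 RPKM or less, and all 7 libraries look female by these genes. The adjusted p of Xist was 0.0327 without tamoxifen replicate 2.

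Of the 13922 genes, 9662 passed the test (69.4%), 4835 higher with tamoxifen (34.7%) and 4827 lower (34.7%). The test was limma on log2(RPKM + 0.5) with a Benjamini-Hochberg adjusted p under 0.05. A difference of at least 2-fold was also met by 2834 genes (20.4%), 1041 higher (7.48%) and 1793 lower (12.9%). The libraries of the groups did not overlap for 69.6% of the genes, with tamoxifen above for 35.4% and below for 34.2%. Among differences of at least 2-fold falls were more numerous than rises, but the largest differences were mostly rises. On the log2 scale 122 genes rose by at least 5 against 7 that fell as far. Of those 122 genes, 79 belong to the lists of hair, skin and cell state genes used here. Where a gene was under 1 RPKM in every library of 1 group, its place among the tested genes rests on other libraries, and its difference is given as a description. The median difference over all genes was 0.00. In whole skin, fewer cells of a type and less RNA per cell cannot be told apart, for rises and falls alike. Per-library values below are RPKM, in the order of replicates 2, 3 and 4 with tamoxifen and 1, 2, 3 and 4 with vehicle, and differences are log2(RPKM + 0.5) with limma's standard error.

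**Figure D1:**
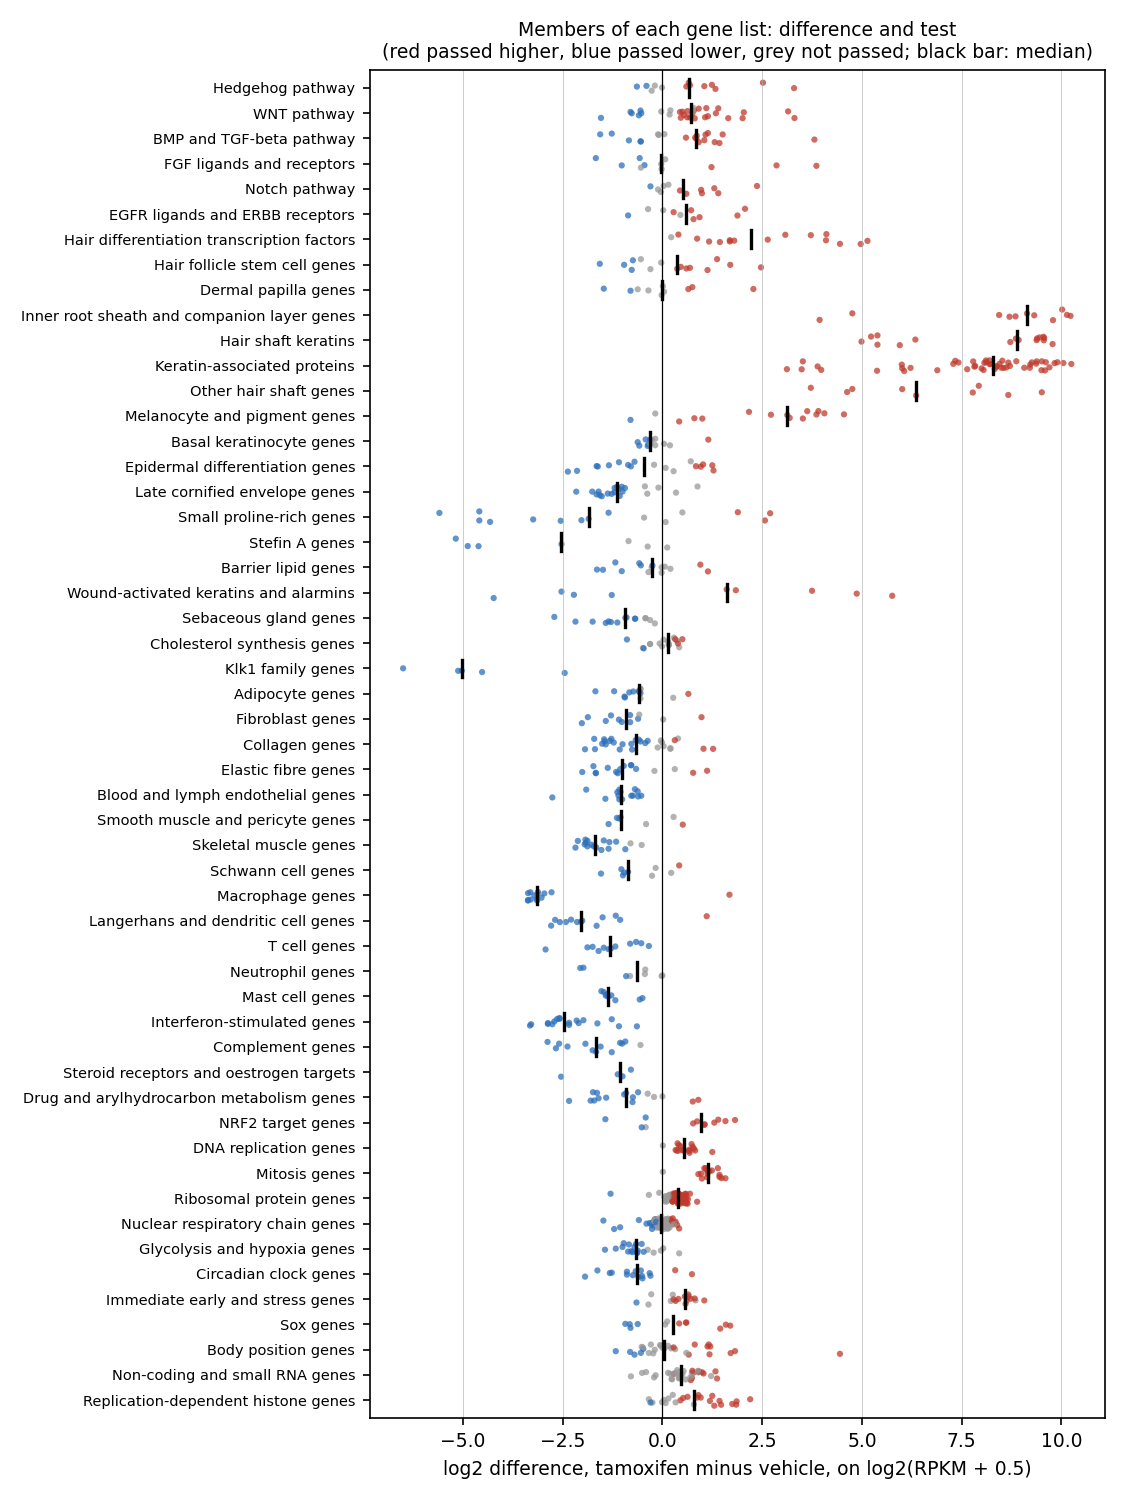
Each point is 1 gene of a list, placed at its log2 difference between tamoxifen and vehicle (horizontal axis, positive values higher with tamoxifen), with lists of at least 4 tested genes in rows red points that passed higher, blue that passed lower, grey that did not pass, and a black bar at each median. Hair lists lie far to the right, with medians of 9.14 for inner root sheath genes and 8.28 for keratin-associated proteins, and macrophage genes lie furthest to the left among cell type lists, at a median of -3.15.

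Hedgehog signals pass from the hair matrix to the mesenchyme. Of 13 tested genes of the pathway 8 rose and 2 fell, beside 34.7% of all genes higher and 34.7% lower, and the median was 0.66. Shh, the ligand of the growing follicle, was at 12.6, 5.86 and 5.74 RPKM with tamoxifen and at 0.679, 0.309, 0.187 and 0.179 RPKM with vehicle, a difference of 3.30 ± 0.42. The groups did not overlap for Shh, and tamoxifen replicate 2 held more than either of the other two tamoxifen libraries. Target genes of the pathway were higher too. Gli1, the transcriptional effector and a target of the pathway, was at 21.6, 12.4 and 14.1 against 6.94, 5.98, 5.86 and 4.97 RPKM (1.33 ± 0.30). The receptor gene Ptch1 rose by 1.24 ± 0.20, the signal transducer gene Smo by 0.66 ± 0.11 and the inhibitor gene Sufu by 0.60 ± 0.08. The 2 that fell were Cdon, a co-receptor gene (-0.64 ± 0.14), and Disp1, needed for release of the ligand (-0.40 ± 0.12, adjusted p = 0.0503 without tamoxifen replicate 3). Hhip, an inhibitor that the pathway induces, was under the filter, at 1.3, 0.468 and 0.639 against 0.252 to 0.321 RPKM.

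WNT genes moved mostly upward, 21 of 32 higher and 6 lower with a median of 0.72. Among ligands, Wnt11 was at 14.4, 16.1 and 18.4 against 1.41, 1.47, 1.17 and 1.53 RPKM (3.15 ± 0.16, adjusted p = 8.50e-09). Wnt10b, a ligand of the growing follicle, was at 9.21, 6.39 and 5.84 against 1.2, 0.855, 1.84 and 1.77 RPKM (2.01 ± 0.28). Wnt10a and Wnt3, ligands that the epidermis also uses, were at 0.20 ± 0.20 and 0.18 ± 0.18 and did not pass. Lef1, the transcription factor of WNT responses in the matrix, was at 34.9, 23.2 and 24.3 against 2.35, 2.36, 2.22 and 2.14 RPKM (3.31 ± 0.38, adjusted p = 4.28e-06). Its vehicle values span a narrow range, and every tamoxifen value is far above them. Nkd2, a feedback inhibitor gene, rose by 2.04 ± 0.22, while Axin2, a general WNT target, rose by 0.50 ± 0.12. The ligand gene Wnt16 fell by 0.80 and the antagonist gene Frzb had a difference of -1.54. The count of lower members was 2 without tamoxifen replicate 4 and 3 without vehicle replicate 4.

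Bone morphogenetic protein (BMP) and TGF-beta genes split by branch. In all 12 of 20 rose and 5 fell (median 0.83). The BMP ligand genes rose, Bmp6 at 6.26, 5.63 and 6.81 against 1.96, 2.32, 1.86 and 1.83 RPKM (1.43 ± 0.12), Bmp2 by 1.14 ± 0.15 and Bmp4 by 1.05 ± 0.18. Bambi, a decoy receptor gene, was at 15.4, 15.6 and 19.1 against 0.719, 0.629, 0.745 and 0.798 RPKM (3.81 ± 0.25), and Id3, a BMP target, rose by 1.51 ± 0.19. The 3 TGF-beta ligand genes all fell, Tgfb2 from 5.41 to 15.3 RPKM with vehicle to 2.69 to 3.23 RPKM with tamoxifen (-1.56 ± 0.26), Tgfb1 by 1.27 and Tgfb3 by 0.55. Nog, the BMP antagonist that starts a growth phase, was at -0.09 ± 0.18.

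Genes of the FGF family moved in both directions, with 3 of 11 higher, 4 lower and a median of -0.03. These counts are near the shares over all genes, 34.7% higher and 34.7% lower. Fgf5, the signal that ends the growth phase, was at 4.14, 11.4 and 14 against 0.158, 0.104, 0.139 and 0.161 RPKM (3.86 ± 0.33). Fgf22, a ligand made by keratinocytes, was at 13.5, 20.8 and 29.9 against 2.33, 1.72, 3.33 and 2.29 RPKM (2.86 ± 0.32). In both genes tamoxifen replicate 2 was the lowest of its group, the reverse of its place for Shh, Gli1 and Lef1. Fgf18, a signal of the resting follicle, was at 2.52, 3.24 and 4.19 against 4.04, 5.35, 5.01 and 5.63 RPKM (-0.54 ± 0.27) and did not pass. Fgf7 and Fgf10, ligands made by the dermal papilla, were at -0.03 ± 0.25 and -0.02 ± 0.17, with an adjusted p = 0.0442 for Fgf10 without tamoxifen replicate 2. Among receptors Fgfr3 rose (1.23 ± 0.17), Fgfr1 and Fgfr4 fell (-1.02 ± 0.12 and -1.67 ± 0.25) and Fgfr2 was at 0.07 ± 0.16.

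Notch genes were higher in 7 of 12 cases and lower in 1 (2 without tamoxifen replicate 2), with a median of 0.52. Heyl, a target gene of the pathway, held 12.1, 11.1 and 11.7 against 1.9, 1.63, 1.98 and 1.91 RPKM (2.37 ± 0.10, adjusted p = 3.26e-09). The target gene Hes1 rose by 1.40 ± 0.11 and the ligand gene Jag1 by 1.30 ± 0.13. Of 10 genes of epidermal growth factor receptor ligands and receptors 6 rose and 1 fell, and the ligand genes Btc, Epgn and Ereg did not pass. The ligand gene Tgfa was at 21.1, 24.7 and 22.5 against 5.29, 5.7, 4.62 and 4.58 RPKM, and Areg at 8.39, 10.3 and 8.44 against 2.81, 2.7, 1.84 and 1.27 RPKM. All tamoxifen values of both ligands lay above all vehicle values.

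**Figure D2:**
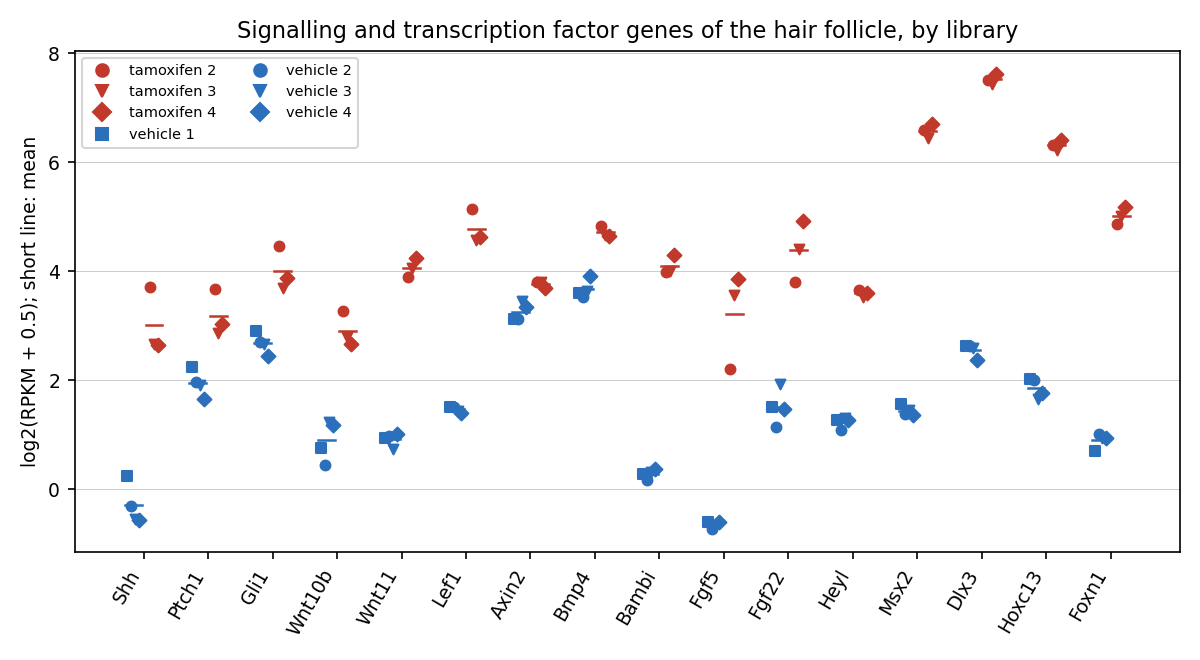
Each point is 1 library, as log2(RPKM + 0.5) on the vertical axis for 16 genes of signalling and transcription in the hair follicle, with tamoxifen in red, vehicle in blue, marker shapes for the replicate number and short lines for group means. Tamoxifen lies above vehicle for every gene drawn, by 3.30 for Shh and 5.14 for Msx2, and tamoxifen replicate 2 is the highest of its group for Shh, Gli1 and Lef1 and the lowest for Fgf5 and Fgf22.

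Transcription factors of hair differentiation rose in 15 of 16 cases, 13 of them by at least 2-fold (median 2.22). Msx2, a homeobox factor of the matrix, was at 95.4, 86.8 and 103 against 2.44, 2.11, 2.25 and 2.07 RPKM (5.14 ± 0.50, adjusted p = 9.72e-07). Dlx3, which acts in the shaft and inner root sheath, was at 182, 172 and 197 against 5.69, 5.68, 5.56 and 4.66 RPKM (4.97 ± 0.43). Hoxc13, a regulator of hair keratin genes, was at 79.2, 74.1 and 84.1 against 3.56, 3.52, 2.64 and 2.92 RPKM (4.45 ± 0.49). Foxn1, the gene mutated in nude mice, was at 28.5, 31.7 and 35.6 against 1.13, 1.53, 1.43 and 1.41 RPKM (4.11 ± 0.24). The tamoxifen libraries were close to each other for these 4 factors, replicate 2 included. Gata3, a factor of the inner root sheath, rose less (0.87 ± 0.15), and Trps1 was the 1 member that did not pass (0.22).

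The structural genes of the hair were among the largest rises of the transcriptome. All 11 inner root sheath and companion layer genes rose (median 9.14), all 16 hair shaft keratins (8.89), all 52 keratin-associated protein genes that passed the filter (8.28) and all 9 other shaft genes (6.36). Where vehicle values were low, their place among the tested genes rests on the high libraries. In every vehicle library 45 of those 52 keratin-associated protein genes and 14 of the 16 shaft keratins were under 1 RPKM. So were 5 of the 11 inner root sheath and companion layer genes and 3 of the 9 other shaft genes. The counts are therefore descriptions. Krtap31-2 did not pass with library weights (adjusted p = 0.15) or without tamoxifen replicate 2 (adjusted p = 0.0716). With only the unwounded libraries numbered 3 and 4, neither it nor Krtap31-1 passed (adjusted p = 0.159 and 0.061). Over all 54 keratin-associated protein genes in the table, filtered or not, tamoxifen lay above vehicle without overlap for 53. Over all genes tested that share was 35.4%.

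By layer, the inner root sheath keratin gene Krt71 was at 4483, 5521 and 5943 RPKM with tamoxifen and at 3.95, 4.26, 2.41 and 5.61 RPKM with vehicle (10.23 ± 1.22, adjusted p = 6.31e-06). Its type I partner Krt25 was at 2976, 3132 and 3322 against 1.44 to 2.83 RPKM. Tchh, encoding trichohyalin, the protein that hardens the inner root sheath, was at 1976, 2880 and 2975 against 1.74 to 3.15 RPKM. These 3 genes were among the most abundant transcripts of tamoxifen skin and were at 1.44 to 5.61 RPKM in vehicle skin. Krt75, the companion layer keratin gene, had more in vehicle skin, 7.98 to 11.3 RPKM, and rose to 216, 304 and 321 RPKM (4.76 ± 0.48).

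In the shaft, Krt85 and Krt35, keratin genes that switch on early in the matrix, were at 539, 561 and 638 and at 353, 301 and 379 RPKM, against at most 0.462 RPKM with vehicle in either. Krt33a, a cortex keratin gene, was at 665, 958 and 1170 against 0.274 to 0.798 RPKM (9.78 ± 1.08), and Krt81 at 494, 830 and 1022 against 0.298 to 0.974 RPKM (9.57 ± 1.01). Krt82, a cuticle keratin gene, was at 59.5, 41.8 and 54.9 against 0.0874 to 0.219 RPKM. The spread among tamoxifen libraries was thus small for Krt85, Krt35 and Krt82 and about 2-fold for Krt33a and Krt81, with replicate 2 lowest. Krtap8-1, a keratin-associated protein gene rich in glycine and tyrosine, rose from 1.72, 2.44, 1.75 and 3.56 RPKM to 2000, 4288 and 4515 RPKM (10.25 ± 1.15). Krtap7-1 was at 1216, 2638 and 2616 against 0.819 to 2.29 RPKM. S100a3, a calcium-binding protein gene of the cuticle, was at 1447, 1501 and 1912 against 0.995 to 2.42 RPKM, and Padi3, encoding an enzyme that modifies trichohyalin, at 145, 206 and 241 against 0.2 to 0.437 RPKM.

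Together the 81 genes of inner root sheath, shaft keratins and keratin-associated proteins made up 7.21%, 12.7% and 13.1% of the summed RPKM with tamoxifen. With vehicle they made up 0.0116%, 0.013%, 0.0139% and 0.0218%. The means were 11% ± 3.31 (SD, n = 3) and 0.0151% ± 0.00459 (SD, n = 4). The groups did not overlap, and the exact permutation test (two-sided, 7 libraries) gave p = 0.0571, the smallest that 3 against 4 libraries allow. Since RPKM is relative to the library, so large a share can lower the values of other genes. Summed RPKM was not the same in the groups, at 407328 to 456469 with tamoxifen and 386675 to 404004 with vehicle. Rescaling each library to the genes outside these lists moved the median difference of all genes to 0.03.

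**Figure D3:**
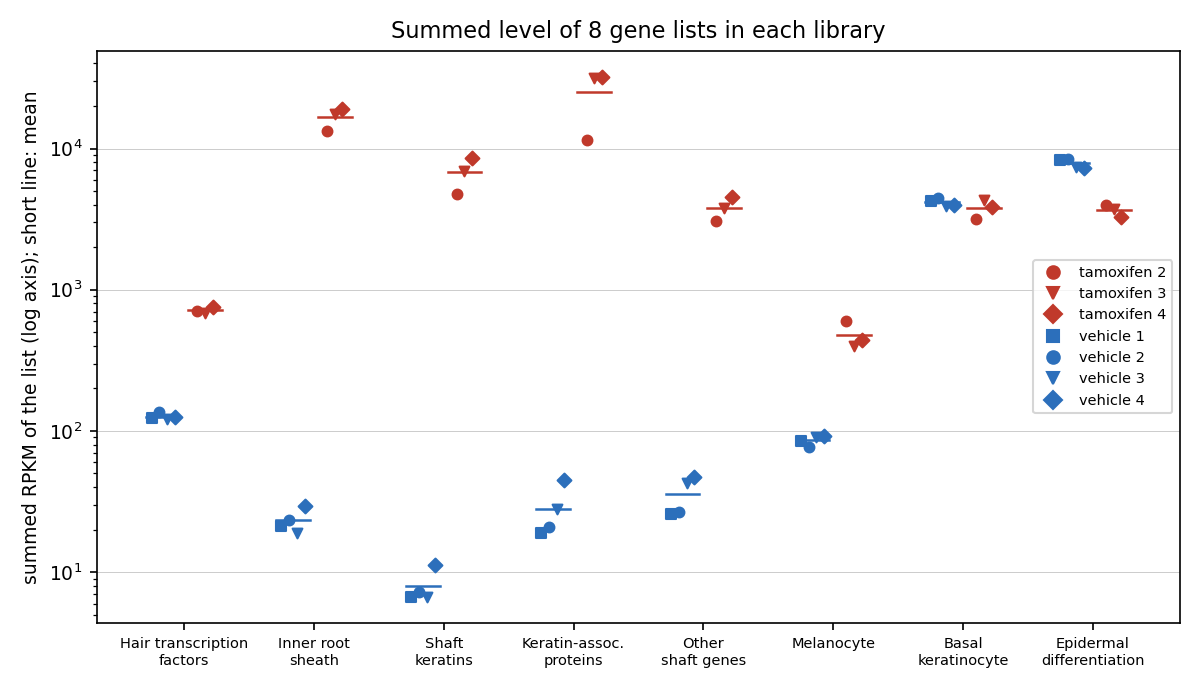
Summed RPKM (log axis) of the genes of 8 lists in each of the 7 libraries, with tamoxifen in red, vehicle in blue, marker shapes for the replicate number and short lines for group means. Keratin-associated proteins sum to 11420 to 32221 with tamoxifen and 18.9 to 44.7 with vehicle, while basal keratinocyte genes overlap at 3154 to 4295 and 3912 to 4456.

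The promoters of these genes shared a sequence feature that the choice of the list did not use. The letters TATAAA, the TATA box, were searched on both strands of the RefSeq windows from 250 bases before to 50 bases after the start of each gene (build GRCm38.p6). They occurred in 13.6% of all 32851 promoters, in 39 of the 47 found for tested keratin-associated protein genes (83%), in 7 of 10 for the inner root sheath (70%) and in 6 of 9 for shaft keratins (66.7%). Within 40 to 20 bases before the start, where a TATA box acts, the shares were 2.5%, 61.7%, 50% and 44.4% in the same order. Neighbouring keratin-associated protein genes are copies of each other, so these promoters are not independent. The 150 bases before the start of a strong rise in each layer are shown, with the TATA box in capitals, for Krtap8-1 (minus strand, chr16:89487953-89488102) and Krt71 (minus strand, chr15:101743098-101743247).
Krtap8-1: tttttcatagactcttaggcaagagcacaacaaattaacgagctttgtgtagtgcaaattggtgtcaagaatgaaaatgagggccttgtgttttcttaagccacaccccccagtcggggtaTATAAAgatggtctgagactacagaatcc
Krt71: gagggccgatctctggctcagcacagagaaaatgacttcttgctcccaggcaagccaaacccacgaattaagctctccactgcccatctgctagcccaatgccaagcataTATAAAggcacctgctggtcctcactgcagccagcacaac
The match begins 29 bases before the start in Krtap8-1 and 40 bases before it in Krt71. A match describes the letters and not the use of the site.

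Rises and falls also came in runs along the chromosomes (positions from GENCODE M21, build mm10, for 13643 of the genes tested). The longest run of neighbouring tested genes that all rose at least 2-fold held 44 genes over 628 kb of chromosome 11 (99477974 to 100105626), from Krt23 through the keratin-associated protein cluster to Krt36, with a median of 8.07. The second held 27 genes over 1010 kb of chromosome 16 (88560828 to 89571183), from the claudin gene Cldn8 to Krtap11-1, with a median of 9.21, and Krtap8-1 and Krtap7-1 lie in it. The third was the 13 genes around Krtap12-1 and Krtap10-4 on chromosome 10 (77689957 to 77862882), 6.54 to 8.62. Keratin-associated protein genes fill most of these 3 runs. Runs skip genes under the filter, and 45 of the 52 tested keratin-associated protein genes were under 1 RPKM in every vehicle library. The members and length of these runs thus depend in part on the filter and are descriptions. Shorter rising runs were 9 genes around Krtap5-2 on chromosome 7 (median 6.22) and 8 hair keratin genes from Krt87 to Krt75 on chromosome 15 (median 7.60). Among falls, the 2 longest runs had 13 genes each. One spans 250 kb of the class II antigen presentation genes on chromosome 17 (34119541 to 34369495, H2-DMa to Btnl2, -3.97 to -1.03), and the other 188 kb of late cornified envelope genes on chromosome 3 (92620081 to 92807891, Lce6a to Lce1k, median -1.37). Next came 12 interferon-inducible genes from Aim2 to Ifi205 on chromosome 1 (median -2.32) and 11 genes on chromosome 19, all but AW112010 of the Ms4a membrane protein family (median -3.05). A run of 8 C-type lectin genes from Clec4g to Cd209g on chromosome 8 had a median of -3.03. Genes of these clusters are similar in sequence, and the sources used here do not say how the authors' counting divided shared reads between copies.

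Outside all lists, the 5 largest rises with a gene name were Prr9, Crnn, Vsig8, Ly6g6d and Fam26d. Prr9, encoding a proline-rich protein of the epidermal differentiation complex, was at 855, 1353 and 1417 against 1 to 1.98 RPKM (9.21 ± 0.97). Crnn, encoding cornulin, a relative of trichohyalin, was at 219, 336 and 348 against 0.163 to 0.337 RPKM (8.61 ± 0.82), and Vsig8 at 177, 125 and 157 against 0.202 to 0.401 RPKM (7.61 ± 0.73). Both Prr9 and Crnn have vehicle values near or under the filter, as the hair genes do.

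The 3 tamoxifen libraries were not alike in the hair program. Replicate 2 had the lowest value of its group in all 11 inner root sheath genes, 11 of 16 shaft keratins and 41 of 52 keratin-associated proteins, with a median of -1.53 against the mean of the other two for the last. It had the highest value in 11 of 13 Hedgehog genes, all 10 tested dermal papilla genes, 16 of 17 DNA replication genes and 14 of 15 melanocyte genes. Over all genes tested it was lowest in 3917 and highest in 7621. Some keratin-associated protein genes went the other way. Krtap31-2 and Krtap31-1, the genes with the largest spread in the tamoxifen group, were at 34.5, 0.0599 and 10.4 and at 31.1, 0.455 and 18.5 RPKM, and Gm11565 beside them at 75.3, 2.22 and 38.2 RPKM. Gm11595, in the same cluster, was at 18.3, 304 and 396 RPKM. The 0.0599 RPKM of Krtap31-2 is near what 3 reads give a gene 1 kb long in tamoxifen replicate 3 (0.0574 RPKM). Its lack of overlap with vehicle is therefore uncertain. Between replicate 2 and the other two, 312 genes differed by at least 2-fold, 157 higher in replicate 2 and 155 lower. Without replicate 2 the comparison of the groups gave 9506 genes, and 9018 of the 9662 calls were kept.

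Pigment genes rose with the hair. Of 15 tested, 13 rose, 1 fell and the median was 3.13. As 5 of the 15 were under 1 RPKM in every vehicle library, the count is a description. Mlana was at 71.6, 52.3 and 59.6 against 2.69, 2.34, 1.91 and 1.61 RPKM (4.55 ± 0.60), and Tyrp1, an enzyme gene of melanin synthesis, at 107, 66.3 and 71.6 against 3.87 to 4.78 RPKM (4.06 ± 0.47). Tyr, encoding tyrosinase, was at 12.7, 9.55 and 9.2 against 0.631 to 0.758 RPKM. The receptor gene Kit, which mast cells share, rose by 0.80 ± 0.18, and Ednrb fell by 0.80.

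Genes of follicle stem cells moved both ways, 8 of 15 higher and 4 lower, beside 34.7% of all genes higher and 34.7% lower. Among those that rose were Sox9 (38.9, 45.8 and 47.1 against 12.7 to 13.7 RPKM), Lhx2 (1.37 ± 0.25) and Tbx1 (2.47 ± 0.22). Cd34, a marker of bulge cells that vessels and fibroblasts also express, was at 60.2, 55.6 and 49.6 against 164, 131, 189 and 178 RPKM (-1.57 ± 0.18). Nfatc1, a factor of quiescent bulge cells, fell by 0.96 ± 0.10, while Lgr5 rose (0.69 ± 0.24, adjusted p = 0.123 without tamoxifen replicate 2) and Krt15 did not pass (-0.30 ± 0.23). Of 10 tested dermal papilla genes 3 rose and 2 fell (4 without tamoxifen replicate 2), beside 34.7% of all genes higher and 34.7% lower. Corin, a protease gene of the papilla, was at 3.37, 2.49 and 2.36 against 0.125 to 0.179 RPKM (2.28 ± 0.17), and Crabp1 fell by 1.47 ± 0.21.

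Genes of the interfollicular epidermis moved in both directions. Krt5 and Krt14, the basal keratin genes, were at 0.04 ± 0.18 and -0.26 ± 0.20 and did not pass, and of 13 basal genes 6 fell and 1 rose. Krt1 was at 229, 193 and 98.4 against 912, 1155, 746 and 653 RPKM (-2.37 ± 0.37, adjusted p = 6.01e-05), and its partner Krt10 at 1143, 884 and 681 against 2598 to 2839 RPKM (-1.62 ± 0.27). Of 18 epidermal differentiation genes 9 fell and 5 rose. Beside this count and that of the basal genes, 34.7% of all genes were lower and 34.7% higher. Lor, encoding loricrin, and Hrnr, encoding hornerin, had differences of -1.09 ± 0.30 and -2.14 ± 0.36. Ivl and Tgm1, encoding involucrin and the enzyme that cross-links it, rose by 1.28 ± 0.26 and 1.25 ± 0.18.

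Falls outnumbered rises in the families of cornified envelope genes. Of 21 late cornified envelope genes 16 fell and 0 rose (2 without tamoxifen replicate 2), with a median of -1.14. Small proline-rich genes fell in 9 of 15 cases and rose in 3, beside 34.7% of all genes lower and 34.7% higher. Of the 15, 9 were under 1 RPKM in every tamoxifen library, so the count is a description. Sprr2a3 was at 3.74, 5.69 and 5.03 against 457, 426, 126 and 164 RPKM (-5.59 ± 0.41), whereas Sprr1a was at 2405, 4139 and 4640 against 818, 828, 353 and 391 RPKM (2.70 ± 0.32). Sprr2a1 and Sprr2a2 carry the same value in every library, so reads of these copies were not told apart. Stefin A genes, inhibitors of cysteine proteases, fell in 4 of 7 cases, with Stfa1 at -5.18 ± 0.53 and Stfa3 at 3.42, 4.13 and 2.42 against 217, 250, 52.3 and 51.4 RPKM.

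Keratins and alarmins of activated epidermis went in opposite directions, 5 of 9 higher and 4 lower. Krt17, also a keratin of the outer root sheath, was at 1191, 1879 and 1945 against 559, 555, 360 and 382 RPKM, and Krt6a at 178, 536 and 397 against 175, 239, 66.2 and 51.6 RPKM (1.61 ± 0.46), where vehicle replicate 2 lies above tamoxifen replicate 2. Krt6b, a close copy of Krt6a, fell, from 154, 202, 51.7 and 29.3 to 3.58, 5.99 and 2.83 RPKM (-4.23 ± 0.50), and Krt16 fell by 2.22 ± 0.52. The connexin gene Gjb2 was at 427, 550 and 550 against 26.7, 25.1, 11.9 and 9.87 RPKM (4.87 ± 0.28). S100a7a rose (5.76 ± 0.30), while S100a8 and S100a9, which neutrophils also make, fell by 1.27 ± 0.31 and 2.53 ± 0.41. Barrier lipid genes fell in 7 of 15 cases and rose in 2, beside 34.7% of all genes lower and 34.7% higher. The long-chain fatty acid elongase gene Elovl4 was at 211, 190 and 181 against 676, 846, 502 and 469 RPKM.

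Most sebaceous gland and adipocyte genes were lower. Sebaceous gland genes fell in 11 of 15 cases and rose in 0. Awat2, an enzyme gene of wax synthesis, was at 3.39, 2.16 and 2.23 against 22, 25.6, 15.9 and 15.8 RPKM (-2.71 ± 0.25). Of 18 cholesterol synthesis genes 13 did not pass, 3 rose and 2 fell, with a median of 0.15. Over all genes 69.4% passed. In the fit without replicate 4 of the group named tamoxifen in wounded skin 6 of the 18 rose and 4 fell. Without tamoxifen replicate 2 of unwounded skin 1 rose, and without any other 1 of the unwounded libraries 1 fell. Of 14 tested adipocyte genes 9 fell and 1 rose (2 in the fit without that wounded library). Adipoq, the adiponectin gene, was at 53.1, 26.3 and 30.6 against 71.7, 78.6, 58.6 and 46.1 RPKM (-0.83 ± 0.26), where replicate 2 overlaps with vehicle. Its adjusted p was 0.0703 without tamoxifen replicate 3 and 0.0508 without replicate 4, and Fabp4, which vessels also express, rose (0.65 ± 0.13). Klk1, a tissue kallikrein gene, was the largest fall of all tested genes, at 0.147, 0.107 and 0.124 against 22.1, 18.1, 172 and 141 RPKM (-6.50 ± 0.83). Of its 15 relatives in the table, itself included, 5 passed the filter, all 5 of them under 1 RPKM in every tamoxifen library, and their reads may be shared between copies.

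Dermal genes fell across cell types. Fibroblast genes fell in 9 of 12 cases and rose in 1, with Pdgfra at 8.01, 6.49 and 4.48 against 27.3, 21.6, 30.8 and 27.3 RPKM. Of 29 tested collagen genes 19 fell and 3 rose. Col1a1, the main collagen gene of the dermis, was at 1352, 602 and 452 against 2153, 1427, 3237 and 2904 RPKM (-1.69 ± 0.37), and Col3a1 fell by 1.94 ± 0.30. The 3 that rose (5 without tamoxifen replicate 4) were Col11a1 (1.27, adjusted p = 0.0961 without tamoxifen replicate 2), Col18a1 (1.03), which codes for a basement membrane collagen, and Col4a5 (0.31). Of 16 elastic fibre genes 12 fell, among them Ltbp1 (-2.01 ± 0.18) and the fibrillin gene Fbn1 (-1.67 ± 0.21), and 2 rose, Ltbp3 and Ltbp4.

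All 15 tested endothelial genes fell, with no overlap between the groups in any of them (34.2% of all genes were lower without overlap). Lyve1, a gene of lymph vessels and of some macrophages, was at 5.37, 7.69 and 8.95 against 38, 28.2, 76.3 and 86.9 RPKM (-2.76 ± 0.38). Pecam1, a gene of all endothelium, was at 15.7, 15.3 and 12.6 against 28.4 to 31.7 RPKM (-1.05 ± 0.11). Skeletal muscle genes fell in 16 of 18 cases (median -1.69), and summed to 3009 to 6621 RPKM with tamoxifen and 10268 to 16886 with vehicle. Tamoxifen replicate 2 held the most muscle RNA of its group in 17 of the 18 genes, for example Myh4 at 245, 54.5 and 92.2 against 606, 653, 356 and 405 RPKM (adjusted p = 0.0818 without tamoxifen replicate 3). Schwann cell genes fell in 5 of 9 cases and rose in 1 (0 without tamoxifen replicate 2), with the myelin gene Pmp22 at -1.54 ± 0.12. The part of the muscle layer in other falls was not tested.

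Immune genes fell in nearly every list. Of 14 macrophage genes 13 fell by at least 2-fold (median -3.15). Cd163, the scavenger receptor gene of resident macrophages, was at 9.85, 10.6 and 10.1 against 86.5, 63.9, 110 and 93.1 RPKM. The differences of C1qa and Clec10a were -3.37 ± 0.25 and -3.37 ± 0.23. The exception was Arg1, at 20.3, 31.5 and 34.1 against 7.3 to 9.65 RPKM (1.68 ± 0.32), an arginase gene that keratinocytes can also express. Of 13 dendritic and Langerhans cell genes 12 fell, with Cd207, the Langerhans cell lectin gene, at 4.04, 3.06 and 4.63 against 21.9, 23.2, 12.9 and 13.9 RPKM (-2.04 ± 0.26). The 1 that rose was Epcam (1.11 ± 0.29), which hair follicle keratinocytes also express.

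T cell genes were lower without overlap for 12 of the 13 in the table, filtered or not. Over all genes tested that share was 34.2%. Of the 12 T cell genes tested, 6 were under 1 RPKM in every tamoxifen library. Cd4 was at 0.698, 0.314 and 0.855 against 6.11 to 9.97 RPKM and the regulatory T cell factor Foxp3 at 0.105 to 0.23 against 1.24 to 2.47 RPKM. All 9 tested mast cell genes fell, with differences of -1.53 to -0.50, the protease gene Cma1 the most (-1.53 ± 0.28). Of 8 tested neutrophil genes 3 fell, near the 34.7% of all genes that were lower. Neutrophil genes specific to granules, Mpo, Elane and Camp, were under the filter. Falls thus ran from macrophages to mast cells. Complement genes fell in 12 of 13 cases (median -1.66), among them the receptor gene C3ar1 (-2.88 ± 0.37) and the factor B gene Cfb (6.24, 10.7 and 10.2 against 47.5 to 64.4 RPKM). Outside the lists, Rnase2a was at 0.34, 0.16 and 0.269 against 60, 29.1, 28.3 and 46.6 RPKM (-5.71 ± 0.35), and the chemokine gene Ccl17, made by dendritic cells, at 0.594, 0.215 and 0.0451 against 28.6, 25.1, 10.1 and 15.3 RPKM (-4.64 ± 0.34). The gut hormone gene Pyy (-5.06 ± 0.50), the class I gene H2-Q2 (-4.56 ± 0.24) and the gasdermin gene Gsdmc (-4.45 ± 0.34) complete the 5 largest falls of this kind.

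All 18 interferon-stimulated genes fell, 17 by at least 2-fold (median -2.46). For 16 of them the groups did not overlap (34.2% of all genes tested were lower without overlap). Of the 18, 5 were under 1 RPKM in every tamoxifen library, so the count is a description. Isg15, a ubiquitin-like protein gene, was at 4.97, 7.02 and 5.37 against 47.9, 66.7, 50.9 and 25.3 RPKM (-2.87 ± 0.30, adjusted p = 1.85e-06). Oasl2, of the antiviral oligoadenylate synthetase family, was at 2.2, 3.55 and 3.48 against 28, 42.8, 44.7 and 26.9 RPKM (-3.32 ± 0.32), and Ifit1 at 1.47, 2.05 and 1.88 against 14.2, 17.2, 19.6 and 7.53 RPKM. Vehicle replicate 4 was the lowest of its group for Isg15, Ifit1 and Oasl2. Cxcl10, a chemokine gene, overlapped, at 2.22, 1.85 and 5.46 against 7.99, 9.21, 8.57 and 3.06 RPKM (-1.09 ± 0.41), and its adjusted p was 0.0665 to 0.132 without any 1 of tamoxifen replicates 2 and 3 and vehicle replicates 1, 2 and 3.

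The interferon-stimulated response element, the site of the factors that interferon activates, was searched on both strands as GAAA followed, after any 2 bases, by GAAA, of the same promoter windows. It was in 7 of 15 promoters of 14 of these genes (46.7%) and in 3.44% of all promoters. Isg15 and Ifit1, which carry several matches close to the start, are shown over 150 bases, with the matches in capitals, some of which overlap (Isg15, minus strand, chr4:156200819-156200968, and Ifit1, plus strand, chr19:34640739-34640888).
Isg15: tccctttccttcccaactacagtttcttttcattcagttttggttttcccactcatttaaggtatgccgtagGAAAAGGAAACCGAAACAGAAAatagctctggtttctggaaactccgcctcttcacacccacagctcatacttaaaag
Ifit1: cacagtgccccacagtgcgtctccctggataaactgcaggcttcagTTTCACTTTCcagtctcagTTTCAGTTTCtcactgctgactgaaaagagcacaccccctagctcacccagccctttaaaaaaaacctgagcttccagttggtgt
The Isg15 window holds 3 matches and the Ifit1 window 2, on opposite strands as printed. The window of Oasl2, which fell by more than either, holds no match.

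**Figure D4:**
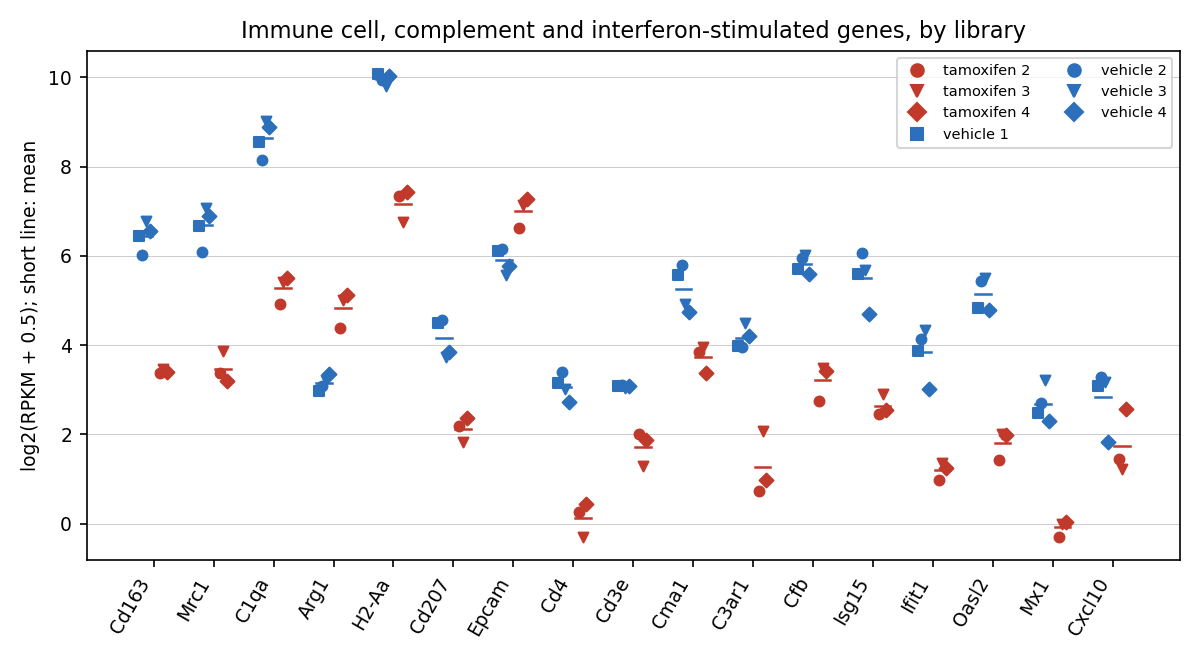
Each point is 1 library, as log2(RPKM + 0.5) on the vertical axis for 17 immune cell, complement and interferon-stimulated genes, with tamoxifen in red, vehicle in blue, marker shapes for the replicate number and short lines for group means. Tamoxifen lies above vehicle for Arg1 (1.68) and Epcam (1.11), overlaps with it for Cxcl10 and lies below it for the other genes drawn, such as Cd163 (-3.03) and Mx1 (-2.76).

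Tamoxifen binds the oestrogen receptor, but no group received it without the transgenes, so its part in the differences below was not tested. In the list of steroid receptors and oestrogen targets all 4 tested genes fell (median -1.06), the glucocorticoid receptor gene Nr3c1 among them. Esr1, encoding the oestrogen receptor, was at 1.37, 1.11 and 0.842 against 2.79, 2.3, 3.68 and 3.2 RPKM (-1.12 ± 0.13). Pgr, the progesterone receptor gene that oestrogen induces, was at 0.0307, 0.0321 and 0.0674 against 2.17, 1.4, 4.13 and 3.73 RPKM. Of the 8 genes of this list, 4 were under the filter. Of 17 drug metabolism genes 12 fell and 2 rose, with the sulfotransferase gene Sult1a1 at 9, 6.95 and 7.96 against 35.8 to 49.5 RPKM and Cyp1a1 at 5.05, 4.16 and 4.45 against 10.6 to 16.5 RPKM. Genes that NRF2 induces rose in 8 of 12 cases and fell in 3. Gclc, for glutathione synthesis, was at 39.2, 36.9 and 34.7 against 9.69 to 10.5 RPKM (1.82 ± 0.13), but Nqo1, the classical target, fell (-0.52 ± 0.16, adjusted p = 0.063 without tamoxifen replicate 4).

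Cell division genes rose, 16 of 17 in DNA replication (median 0.54) and 16 of 17 in mitosis (1.13). Ube2c, needed to leave mitosis, was at 72.4, 61.3 and 62.6 against 26.3, 26.4, 18.1 and 17 RPKM (1.58 ± 0.16), and the proliferation marker gene Mki67 at 19.9, 13.8 and 11.8 against 7.59, 7.64, 6.37 and 5.45 RPKM. Ribosomal protein genes rose together but by little, 64 of 77 higher with a median of 0.38, and 37 of 77 with quantile normalization. They made up 13.1% to 14% of the summed RPKM with tamoxifen and 10.9% to 11.7% with vehicle. The 1 that fell, Rpl3l (-1.30 ± 0.45), is the form of striated muscle, and its adjusted p was 0.0891 without tamoxifen replicate 3, 0.0712 without replicate 4 and 0.0517 without vehicle replicate 2. Of 78 nuclear respiratory chain genes 56 did not pass, and the 3 that fell at least 2-fold, Cox6a2, Cox8b and Cox7a1, are muscle or brown fat forms. Without 1 library Cox8b had an adjusted p of up to 0.109. Glycolysis and hypoxia genes fell in 15 of 20 cases and rose in 0 (1 without tamoxifen replicate 2), with a median of -0.65. The lactate transporter gene Slc16a3 was at -1.44 ± 0.21.

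Clock genes passed without exception, 14 of 16 lower and 2 higher. Dbp, an output gene of the clock, was at 20, 10.9 and 15 against 58.7, 51.1, 63 and 61.2 RPKM (-1.94 ± 0.22), Ciart at 4.73, 3.39 and 3.43 against 11.6 to 14.1 RPKM (-1.63 ± 0.11), and the repressor genes Nr1d1 and Nr1d2 differed by -1.27 ± 0.16 and -1.32 ± 0.12. Arntl, the activator that those repressors hold down, rose (0.32 ± 0.08), as did Cry1 (0.74 ± 0.07). The groups did not overlap for either of them. The sources used here do not give the hour of sampling. The E-box CACGTG, which reads the same on both strands and is the site of the clock activators, was in 6 of 19 promoters of 14 clock genes (31.6%) and in 7.15% of all promoters. Ciart, with 3 of them in 150 bases, is shown with the matches in capitals (minus strand, chr3:95882229-95882378).
Ciart: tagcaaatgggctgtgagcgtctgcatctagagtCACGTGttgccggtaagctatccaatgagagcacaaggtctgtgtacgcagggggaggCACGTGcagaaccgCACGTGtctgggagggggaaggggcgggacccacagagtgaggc
Immediate early and stress genes rose in 11 of 17 cases and fell in 1 (2 without tamoxifen replicate 4, and 2 in the fit without replicate 4 of the group named tamoxifen in wounded skin). Egr1 was at 101, 115 and 108 against 48.8, 36, 76.1 and 54.9 RPKM (1.05 ± 0.32), and Fos was at 0.26 ± 0.41 with groups that overlap. Replication-dependent histone genes rose in 15 of the 25 that passed the filter (of 69 in the table), beside 34.7% of all genes higher. Hist1h2ag was at 1.86, 3.37 and 3.71 RPKM with tamoxifen and at most 0.631 RPKM with vehicle. Of the 25 genes, 14 were under 1 RPKM in every vehicle library, so the count is a description. These transcripts lack a poly(A) tail and depend on the library kit, and NEBnext and NuGen kits were both used, without a record here of which library had which.

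Genes that mark the position along the body differed between libraries of 1 group. Hoxc10, a gene of the hind part of the trunk, was at 0.0491, 1.92 and 1.27 RPKM with tamoxifen and at 0.0213, 0, 3.57 and 2.75 RPKM with vehicle. Hoxb9 was at 0.414, 4.26 and 3.83 against 0.32, 0.438, 2.98 and 3.08 RPKM, and Hoxa9 at 0.582, 2.34 and 1.96 against 0.611, 0.698, 2.53 and 2.7 RPKM. In all 3 genes vehicle replicates 1 and 2 and tamoxifen replicate 2 were low, and replicates 3 and 4 of both groups were high. In contrast, 7 neighbouring genes of the HoxB cluster, Hoxb2 to Hoxb8, rose with tamoxifen, with Hoxb6 at 14, 13.2 and 15.3 against 3.25, 3.02, 3.97 and 4.51 RPKM (1.82 ± 0.14). Genes chosen after their values were seen showed the same division within vehicle skin. Krt16 was at 256 and 335 RPKM in vehicle replicates 1 and 2 and at 71.7 and 55.9 in 3 and 4, Stfa3 at 217 and 250 against 52.3 and 51.4, and Klk1 at 22.1 and 18.1 against 172 and 141 RPKM. For Klk1 and Stfa3 every vehicle library was far above every tamoxifen library, while for Krt16 the lowest vehicle value (55.9) was near the highest tamoxifen value (46.9). With only the libraries numbered 3 and 4, an alternative added after the data were seen, 8779 genes passed and 8340 of the 9662 calls were kept, with 0 in the opposite direction. The part of body site in other differences was not tested.

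**Figure D5:**
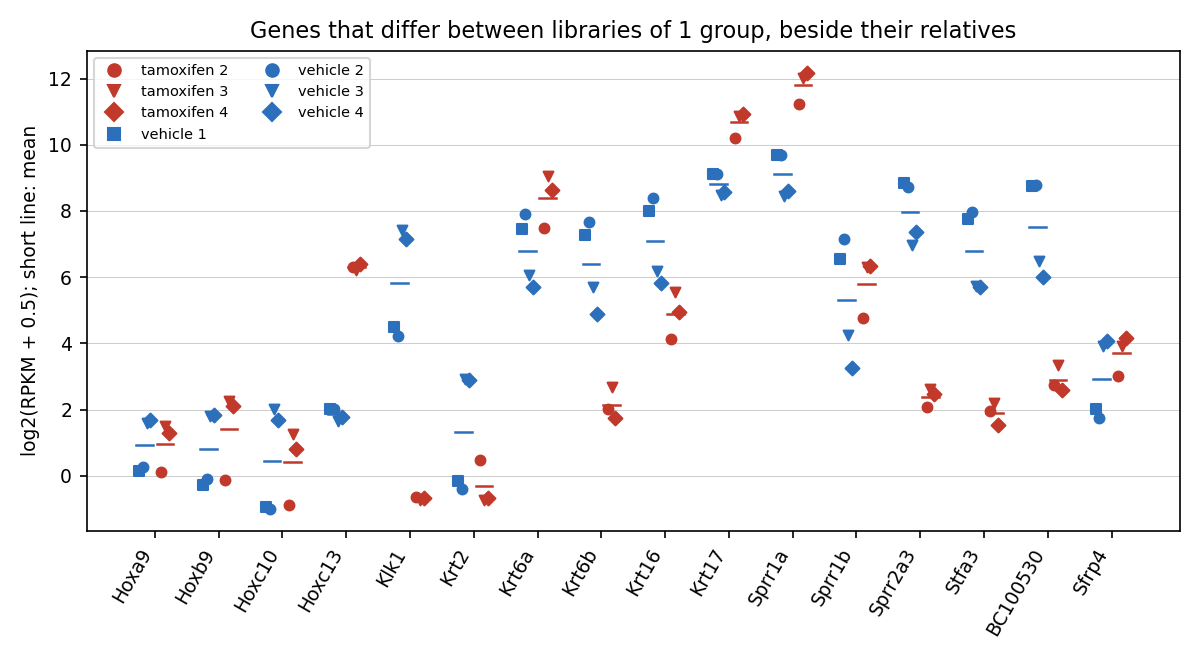
Each point is 1 library, as log2(RPKM + 0.5) on the vertical axis for 16 genes of body position, cornified envelope and keratin families, with tamoxifen in red, vehicle in blue, marker shapes for the replicate number (square 1, circle 2, triangle 3, diamond 4) and short lines for group means. Squares and circles lie together and apart from triangles and diamonds for Hoxc10, Hoxb9 and Hoxa9 in both groups and for Klk1, Krt16 and Stfa3 in vehicle skin.

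Some abundant genes held their level. Among genes of at least 100 RPKM on average in either group, the 5 with the smallest differences were Uqcrc1, Cox5b, Atp5o, Nme2 and Chmp4b, each within 0.01 of 0 on the log2 scale. Uqcrc1, a respiratory chain gene, was at 141, 135 and 147 against 144, 155, 131 and 135 RPKM, so the groups overlapped completely. In the authors' deposited table of the same contrast, 10621 of the genes tested here have a q-value under 0.05. That table holds 9661 of the 9662 genes that passed limma at that level, and its ratio has the same direction for all 9662.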

How the data were processed

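Gene expression in unwounded mouse skin was described from the RPKM values that the authors deposited, with mm10, TopHat2 2.1.0, bcl2fastq and Partek named in the submitters' processing notes, and with NEBnext and NuGen library kits per the labels' protocols. Alignment counts per library were deposited too and gave the depth. The deposited p-value, q-value and ratio columns come from the authors' own model and were only set beside the results. Among the 7 libraries 1650 values lie above 0 and under 1e-4, so reads were divided between genes and low values are not whole reads.

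Values were taken as log2(RPKM + 0.5) for genes of at least 1 RPKM in at least 3 of the 15 libraries. All 15 libraries entered 1 limma model of 4 groups with a trended prior, two-sided, with Benjamini-Hochberg adjustment over 13922 genes and a threshold of 0.05, tested on simulated data. Fold differences on this scale understate the change of low genes. The sources used here do not say that each library is a separate animal, so p-values measure the spread between these libraries, which may be technical. The members, the 56 gene lists and the alternatives were chosen with earlier results of these data known. Genes were named by rule as the 5 largest rises and falls, overall and outside the lists, the 3 largest differences of each list, genes of set interest, and the 5 most stable and most variable genes. Other list members were named for their role after their values were seen, and some genes that the rule names are not reported here. Promoters are from RefSeq (GRCm38.p6), and positions from GENCODE M21. R 4.3.3, limma 3.58.1, Python 3.11.15 and pandas 2.3.3 were used. Alternatives covered the pseudocount, filter, scaling, libraries, prior, library weights, replicate block and each library left out.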

Additional observations from a re-analysis of the deposited data

Results flagged for a closer look

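Among 196 named genes, 4 had a vehicle library farther from its group than Dixon's 95% value for 4 libraries allows, and chance gives about 1 in 20 groups (5%). Cxcl10 was low in vehicle replicate 4, at 3.06 RPKM. Dlx3 was low in the same library, at 4.66 RPKM, and Krt36 was low there too, at 0.159 RPKM. Krt25 was low in vehicle replicate 3, at 1.44 RPKM. The tamoxifen group has 3 libraries and was not examined in this way.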

How the results depend on the processing

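The number of genes passing was 9662 of 13922 and stayed within 1.5 times of it under all 29 alternatives, and 0 calls took the opposite direction. It ran from 7193 of 9942 genes tested with a filter of 5 RPKM to 11308 of 21484 with no filter. Leaving out 1 library in turn gave 8884 to 10013 genes, and 2690 to 3033 that also differed by at least 2-fold. Whether the replicate numbers pair the libraries is not known here. Deviations of same-numbered libraries correlated at -0.00147, 0.0748 and 0.0485 for numbers 2, 3 and 4. Between differently numbered libraries of the groups the values ran from -0.0764 to 0.0526. Such small correlations over all genes cannot decide it. With the replicate block 9567 genes passed, and over the unwounded libraries numbered 2 to 4 there were 8310 with the block and 8869 without it. Krt16 and Krt6a did not pass there with the block (adjusted p = 0.0861 and 0.087). The hair share difference of 11 percentage points was 5.33 without keratin-associated protein genes and 9.96 to 12.9 with 1 library left out. Over named genes, 52 results under an alternative lost significance, 11 gained it and 5685 kept their side. Depth was lower with tamoxifen, so genes near 3 reads are less certain there.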
